A study of Mus musculus with 44 samples.

Results

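The genes described here encode the proteasome of the mouse, followed in cultured blood progenitors as they moved toward the B lineage. They are the rows of the deposited expression table whose symbol is Psm followed by one of the letters a to g and a number, and 49 of the 23234 genes of the table matched. Of these, 5 are immunoproteasome genes (Psmb8, Psmb9, Psmb10, Psme1 and Psme2) and 43 are called standard proteasome genes here. The remaining row, Psmc3ip, is no proteasome subunit but a meiotic recombination factor named for its binding to Psmc3. Values are FPKM, fragments scaled to the length of the transcript and to the mapped fragments of the library. With a minimum of 1 FPKM in at least 3 libraries, 13907 genes were tested, among them all 5 immunoproteasome genes, 42 of the 43 standard genes and Psmc3ip. The standard gene left out was Psma8, the alpha subunit of the testis, which was listed at 0 in all 44 libraries.

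The proteasome degrades proteins that carry ubiquitin chains. Its 20S core is a barrel of alpha rings, which gate the entry, and beta rings, in which Psmb6, Psmb7 and Psmb5 carry the proteolytic sites, and the 19S cap of ATPases (Psmc genes) and non-ATPases (Psmd genes) recognises and unfolds substrates. In the immunoproteasome, which is abundant in blood cells and inducible by interferon gamma, Psmb9, Psmb10 and Psmb8 take the places of Psmb6, Psmb7 and Psmb5, and Psme1 with Psme2 forms the PA28 activator. The peptides it makes feed presentation on MHC class I.

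The cells were induced leukocyte stem (iLS) cells, multipotent progenitors from C57BL/6J fetal liver that carry Id3-ERT2, a fusion of the E protein inhibitor Id3 to a receptor domain switched on by 4-hydroxytamoxifen (4-OHT). Until the start of the course the cells were kept in IMDM medium on a layer of TSt-4 feeder cells, with 40 nM 4-OHT, 20 ng/mL IL-7 and 10 ng/mL each of SCF and Flt-3L. For B cell differentiation 4-OHT, SCF and Flt-3L were left out, IL-7 was given at 5 ng/mL and TSt-4 cells were again the feeder. Poly(A) RNA was sequenced in 44 libraries: triplicates for 14 times (0, 0.5, 1, 2, 4, 6, 8, 10, 12, 24, 48, 72, 96, 144 h) and 1 library each for 120 h and 168 h. All groups share the strain, the fusion and the feeder line, and every comparison with 0 h uses the same 3 libraries at 0 h. The labels leave the origin of the replicates unstated, so a p-value here reflects library-to-library spread, which may be technical.

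Summed FPKM ran from 516025 to 701705 over the libraries, with 11520 to 12316 genes at 1 FPKM or more. Removal of feeder cells before lysis is not mentioned in the labels. The 24 stromal feeder genes in the file had sums of 710 to 2240 FPKM in the 0 h libraries, 7030 to 8460 in those of 24 h and 1770 to 3010 in those of 144 h, and 18 general blood-cell genes had sums of 2170 to 2800, 354 to 828 and 1750 to 2170. All 22 tested stromal genes rose at 24 h against 0 h, while Lum was listed at 0 in all 44 libraries and Dcn in 43. All 18 blood-cell genes fell. In such a mixture, fewer cells of a type and less RNA per cell cannot be told apart. Replicate 3 at 24 h stood apart from the others at 24 h: its blood-cell sum was the 354 FPKM, against 828 and 669 in replicates 1 and 2. Across all tested genes it correlated least with the mean of the others in its group (r = 0.9203, across genes, which are not independent replicates). Other libraries came near these values, with r = 0.9219 for 72 h replicate 1 and a lowest blood-cell sum of 392 FPKM at 48 h. Replicate 3 held the lowest of the 3 values at 24 h for all 5 immunoproteasome genes, for 29 of the 42 standard genes and for 51.8% of all tested genes.

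The stretches upstream of 3 genes are printed because the contrast between Psmb8 and its counterpart Psmb5 runs through the results, and because Psmb9 lies back to back with Tap1, a gene of the peptide transporter. They come from RefSeq (GRCm38.p6), whose promoter table matched 41 of the 49 members, and read 5′ to 3′ on the strand of the gene, ending at the base before the start site. For Psmb8 this is chr17:34197945-34198194 (plus strand), for Psmb9 chr17:34187331-34187555 (minus strand) and for Psmb5 chr14:54617996-54618245 (minus strand). Capitals mark matches to a GAS motif (TTCNNNGAA, a motif of interferon gamma response) in Psmb8 and to an antioxidant response element (TGACNNNGC, bound by Nfe2l1 and Nfe2l2) in Psmb5. The Psmb9 stretch is the whole of the sequence between its start site and that of Tap1 on the opposite strand.
Psmb8: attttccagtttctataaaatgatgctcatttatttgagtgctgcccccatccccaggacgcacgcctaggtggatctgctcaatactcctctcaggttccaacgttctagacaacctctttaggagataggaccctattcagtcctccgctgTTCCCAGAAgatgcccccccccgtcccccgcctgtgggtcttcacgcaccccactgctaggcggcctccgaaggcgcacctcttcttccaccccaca
Psmb9: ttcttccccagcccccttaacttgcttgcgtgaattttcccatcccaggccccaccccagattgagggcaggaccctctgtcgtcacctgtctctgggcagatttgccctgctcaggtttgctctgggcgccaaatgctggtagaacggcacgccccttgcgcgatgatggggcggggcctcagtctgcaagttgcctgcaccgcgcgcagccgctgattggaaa
Psmb5: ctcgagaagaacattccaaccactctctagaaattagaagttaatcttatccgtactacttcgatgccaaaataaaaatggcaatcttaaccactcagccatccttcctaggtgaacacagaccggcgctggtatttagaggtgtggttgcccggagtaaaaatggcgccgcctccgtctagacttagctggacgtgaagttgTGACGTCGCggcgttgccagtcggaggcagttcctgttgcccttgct

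The motif letters were searched on both strands of the 250 bases upstream, and a match is a description only. The GAS letters were in 1 of 5 immunoproteasome genes (Psmb8), in 1 of 35 standard genes in the table (Psmg1) and in 8.13% of all 27025 genes. The antioxidant response element was in 0 of 5 immunoproteasome genes, in 5 of 35 standard genes (Psmb5, Psmb6, Psmc6, Psmd9 and Psmd12) and in 11.5% of all genes. The core of the interferon-stimulated response element (GAAA, a pair of any bases, GAAA) was in 0 of 5 immunoproteasome genes, in 3 of 35 standard genes (Psmb3, Psmd4 and Psmd9) and in 3.46% of all genes. Psmd9 held both the antioxidant response element and the interferon-stimulated core, 31 and 159 bases before its start site, without shared bases. Start sites of Psmb9 and Tap1 lay 226 bases apart, those of Psmb8 and Psmb9 10865 bases apart on chromosome 17, and those of Psme1 and Psme2 12607 bases apart on chromosome 14.

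The core and cap genes were abundant, and the assembly chaperones were lower. By median FPKM over the libraries, the highest and lowest members were Psma7 (205) and Psma5 (74) in the tested alpha ring, Psmb3 (221) and Psmb11 (1.88) in the beta ring, Psmc5 (138) and Psmc6 (69.1) among the ATPases, and Psmd3 (112) and Psmd6 (61.4) among the non-ATPases. Psmb11, the catalytic subunit of thymic epithelium, ranged from 1.08 to 3.84 FPKM. Psme3, the nuclear PA28 gamma cap, had the highest median of the other caps and inhibitor (97), and the inhibitor gene Psmf1 the lowest (11.9). The assembly chaperones ran from Psmg4 (36.5) to Psmd9 (11.6). Medians of the immunoproteasome genes ran from Psme2 (157) to Psmb10 (37.3). Psmb10 and Psmb8 (62.6) lay below every tested core gene apart from Psmb11.

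Standard genes kept a narrow range over time and immunoproteasome genes a wider one. The ratio of the highest to the lowest time-point mean had a median of 1.52 over the 42 standard genes (1.22 to 3.18) and of 2.71 over the 5 immunoproteasome genes (1.97 to 3.88). It was 2.37 over all tested genes and 1.78 over the 1589 with a median of at least 50 FPKM, so that Psme1 (2.18) and Psme2 (1.97) were under the first value and above the second. By the moderated F test of limma over the 13 later time points against 0 h (Benjamini-Hochberg adjusted p under 0.05, the threshold for every call below), 15 of 42 standard genes and 4 of 5 immunoproteasome genes differed from 0 h, beside 56% of all tested genes. Without 24 h replicate 3 these counts were 25 and 5, without replicate 1 of every time point 4 and 2, and without replicate 2 of every time point 5 and 2. The shares of all tested genes in those fits are not given here. Taking each later time point against 0 h on its own, 21 standard genes were never called, 13 were called higher only, 8 lower only, and 0 in both directions.

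**Figure D1:**
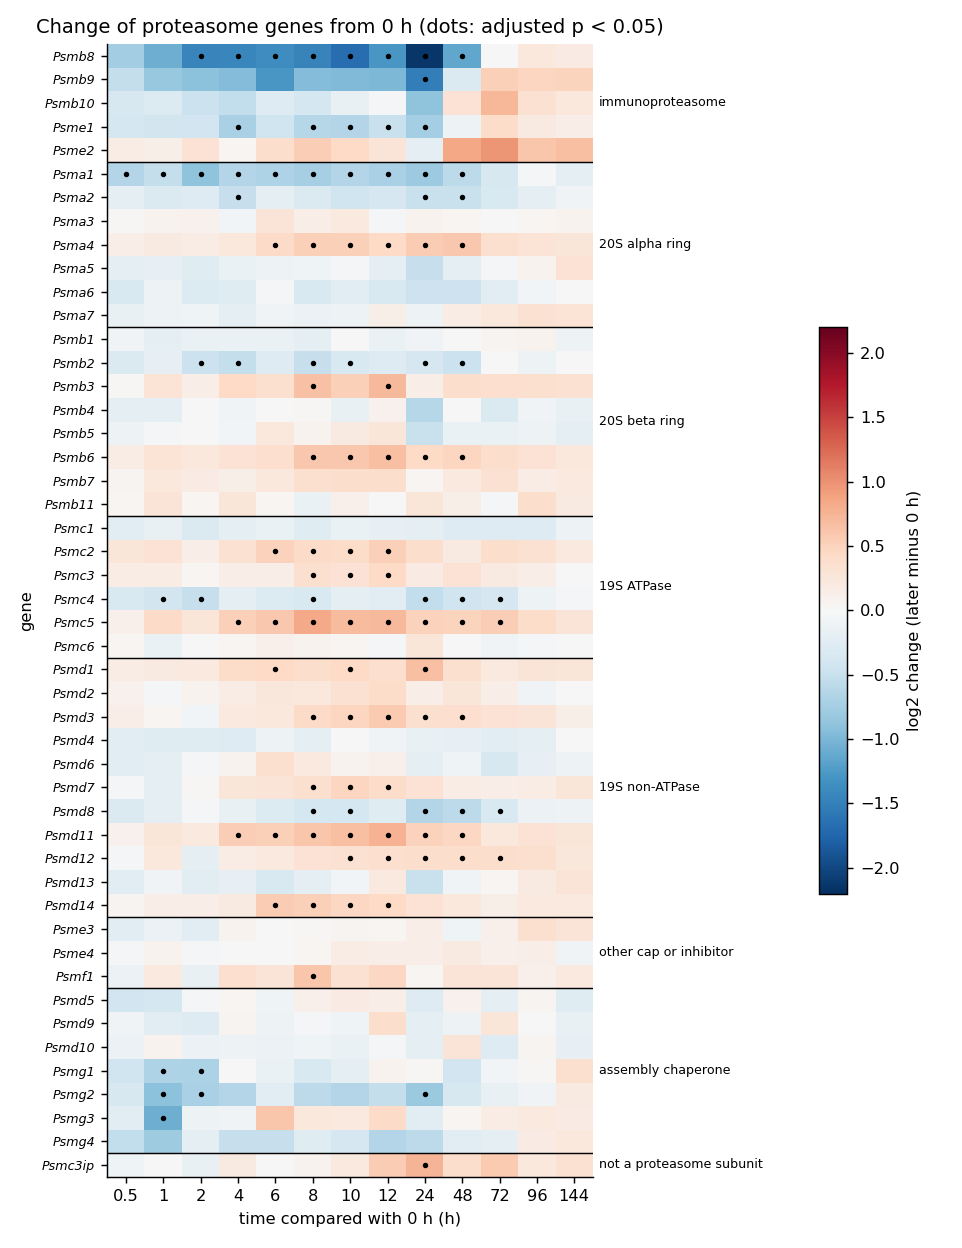
Log2 change of each tested proteasome gene from 0 h (colour, log2(FPKM + 1) scale) at the 13 later replicated time points, with genes grouped by role and dots where the limma adjusted p was under 0.05. Psmb8 is lowest at 24 h (-2.14), Psma1 carries dots from 0.5 to 48 h, and no gene carries one at 96 or 144 h.

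Psmb8, the immunoproteasome subunit that replaces Psmb5, was called lower than at 0 h from 2 h to 48 h in the fit without blocks. The 0 h libraries held 123.3, 147.1 and 111.5 FPKM, those of 1 h held 59.69, 68.78 and 51.05, those of 6 h 52.19, 74.44 and 29.84, and those of 24 h 47.01, 63.63 and 6.792. Every library at 1, 6 and 24 h lay below every library at 0 h. At 1 h the change was -1.08 ± 0.46 on the log2(FPKM + 1) scale (± is the SE for log2 changes) and was not called (limma adjusted p = 0.0691). Psmb8 fell by 1.36 ± 0.46 at 6 h (limma adjusted p = 0.0185) and by 2.14 ± 0.46 at 24 h (limma adjusted p = 0.000301). The 6 h call was lost without 6 h replicate 3 (-1.01, limma adjusted p = 0.119) or without 0 h replicate 2 (-1.25, limma adjusted p = 0.0657). Calls of lower Psmb8 were made at 2, 4, 6, 8, 10, 12, 24 and 48 h. Within the runs of consecutive library codes that held both time points, the change at 6 h was -1.22, -0.97 and -1.87.

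Psmb9, which replaces Psmb6, held 119, 146.5 and 90.84 FPKM in the 0 h libraries, 44.18, 56.7 and 42.27 in those of 6 h, and 83.56, 101.5 and 6.898 in those of 24 h. The 6 h libraries lay below all 0 h libraries, while at 24 h replicates 1 and 2 overlapped them and replicate 3 was far below. The change at 6 h was -1.28 ± 0.55 and was not called (limma adjusted p = 0.0649). Within the runs of library codes it was -1.41, -1.35 and -1.09, and with run as a block it was called (limma adjusted p = 0.00202). At 24 h Psmb9 fell by 1.52 ± 0.55 (limma adjusted p = 0.0248), and without 24 h replicate 3 the change was -0.34 (limma adjusted p = 0.553). The call was also lost without 0 h replicate 1 (-1.51, limma adjusted p = 0.0581) or 0 h replicate 2 (-1.36, limma adjusted p = 0.0863). Psmb10, which replaces Psmb7, had 37.01, 53.09 and 33.48 FPKM before and 26.22, 42.26 and 8.44 at 24 h. Those groups overlapped, and the change of -0.89 ± 0.40 was not called (limma adjusted p = 0.0681).

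The 2 genes of the PA28 activator differed from each other. Psme1 had 201, 169.3 and 170.7 FPKM in the 0 h libraries, 104.8, 114.4 and 107.5 in those of 4 h, and 129.1, 134.2 and 70.73 in those of 24 h. Every 4 h and 24 h library lay below every 0 h library, and Psme1 fell by 0.72 ± 0.19 at 4 h (limma adjusted p = 0.00289) and by 0.74 ± 0.19 at 24 h (limma adjusted p = 0.00162). Psme2 had 123, 134.7 and 113.4 FPKM in the 0 h libraries, 172.1, 180.9 and 133 in those of 6 h, and 176.3, 210.9 and 32.96 in those of 24 h. Replicate 3 was the lowest at both later times, within the 0 h range at 6 h and below it at 24 h, and the other libraries were above that range. At no time point was Psme2 called against 0 h, and its changes were 0.38 ± 0.40 at 6 h (limma adjusted p = 0.49) and -0.20 ± 0.40 at 24 h (limma adjusted p = 0.729).

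By counts against 0 h, the immunoproteasome genes called were 0 of 5 at 1 h (background 32.1% of tested genes called in either direction), 1 at 6 h (38.1%, and 19.2% lower) and 3 at 24 h (43.3%, and 22.5% lower), all lower. Their median log2 changes were -0.40, -0.44 and -0.89, beside -0.08, -0.06 and -0.06 over all tested genes. With library-code run as a block the counts at 1 h and 6 h were 3 each. With quantile normalization they were 2 and 3, beside 32.9% and 38.6% of all tested genes. Without 6 h replicate 3 or 0 h replicate 2 the 6 h count was 0, and without 6 h replicate 2 it was 2. With only the 0 h and 24 h libraries fitted, 0 of the 5 were called at 24 h. Without 24 h replicate 3, Psmb8 (-1.19, limma adjusted p = 0.00816) and Psme1 (-0.45, limma adjusted p = 0.0416) were still called lower at 24 h, and the change of Psme2 was 0.64 (limma adjusted p = 0.0985). In that fit 35.9% of all tested genes were called in either direction.

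From 72 h on, the mean of each immunoproteasome gene at the replicated time points was close to or above its 0 h mean. Psmb8 had 123.7, 134.1 and 120.1 FPKM at 72 h, overlapping the 0 h libraries, and Psme1 239, 235.4 and 238.6, above all of them. Psme2 held 221.6, 275.8 and 232.4 FPKM at 72 h, above all 3 libraries at 0 h, with a change of 0.97 ± 0.40 that was not called (limma adjusted p = 0.0736). None of the 5 was called by limma against 0 h at 72 h (background 25.4%) or at 144 h (8.89%), and their median changes were 0.52 and 0.24, beside 0.03 over all tested genes at both times. With library-code run as a block 4 were called higher at 72 h and 3 at 144 h, where no run held both time points.

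Between 24 h and 144 h, 4 of the 5 rose, beside 17.4% of all tested genes called higher and 32.9% called in either direction. Only replicate 3 was in the same library-code run at both of these times. Psmb8 had 123.4, 201.3 and 118.4 FPKM at 144 h and Psmb9 154.3, 208.1 and 137.7, above all 24 h libraries. Psmb8 rose by 2.32 ± 0.46 (limma adjusted p = 0.000228), Psmb9 by 2.01 ± 0.55 (limma adjusted p = 0.00512), Psmb10 by 1.13 ± 0.40 (limma adjusted p = 0.0274) and Psme1 by 0.88 ± 0.19 (limma adjusted p = 0.000468). With only the 24 h and 144 h libraries fitted, 0 of the 5 were called. Without 24 h replicate 3 the calls were Psmb8 (1.37, limma adjusted p = 0.00462) and Psme1 (0.59, limma adjusted p = 0.0119), and Psmb9 and Psmb10 were no longer called (0.83 and 0.51). In that fit 24.8% of all tested genes were called in either direction. Psmb10 was also not called without 144 h replicate 1 (0.97) or without 144 h replicate 2 (1.08). The single libraries at 120 h and 168 h, which were not fitted, held 115.8 and 139.3 FPKM of Psmb8 and 163.3 and 178.5 of Psmb9. Psmb10 had 31.27 FPKM at 120 h, below every 0 h library, and 45.61 at 168 h.

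**Figure D2:**
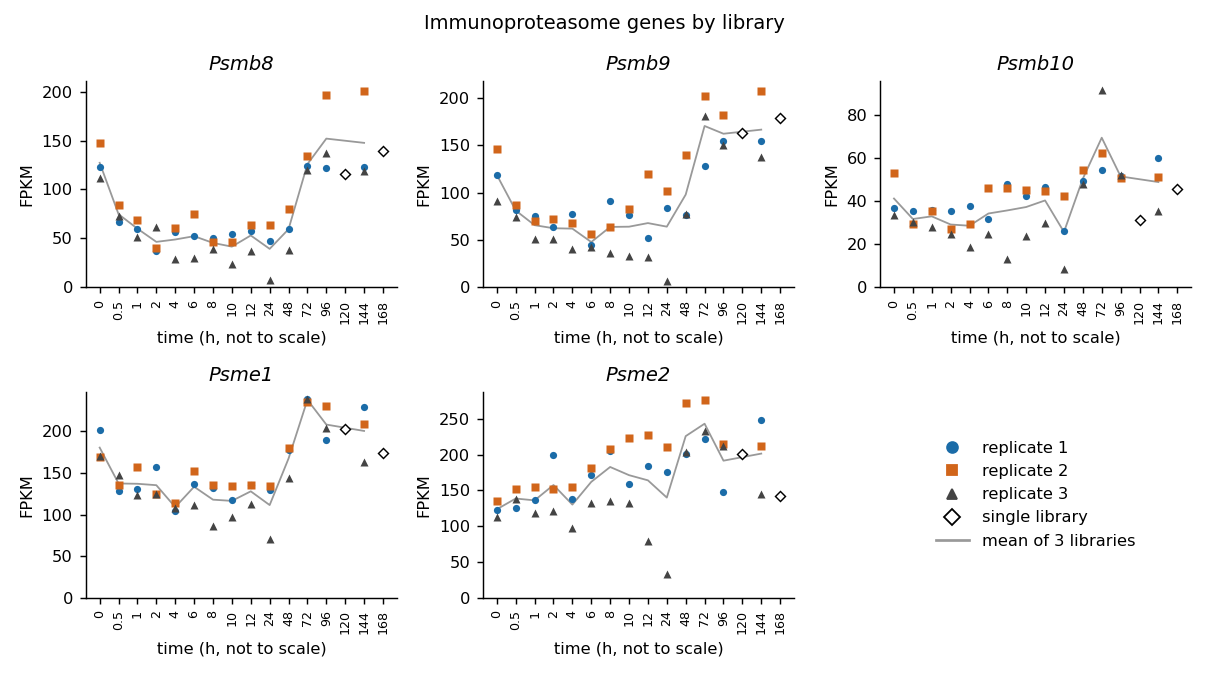
FPKM of the 5 immunoproteasome genes in every library against time after the change of culture, with a marker per replicate, open diamonds for the single libraries and lines through the means of 3. Psmb8 runs from 127 at 0 h to 39.1 at 24 h and 148 at 144 h, and 24 h replicate 3 is the lowest of all libraries for each of the 5 genes.

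The blood-cell and stromal genes moved with these changes, and their part in them was not tested. Across the 42 replicated libraries, which share time point and cell mixture, Psmb8 correlated at r = 0.82 with the mean of the blood-cell genes and at -0.64 with the mean of the stromal genes (log2 scale, a description). For Psmb9, Psme1, Psmb10 and Psme2 the values with the blood-cell mean were 0.67, 0.65, 0.39 and 0.21. Scaled to the blood-cell genes, which moved the median of all genes to 1.86 at 24 h, the change of Psmb8 at 24 h was -0.05, that of Psmb9 0.58, of Psmb10 1.21, of Psme1 1.41 and of Psme2 1.95. Relative to that median, the 4 other genes than Psme2 were lower. In a fit that included the stromal mean as a covariate, Psmb8 stood at -1.73 and Psmb9 at -1.74 at 24 h, 0 of the 5 were called, and 13 genes of all tested were called (0.0935%).

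**Figure D3:**
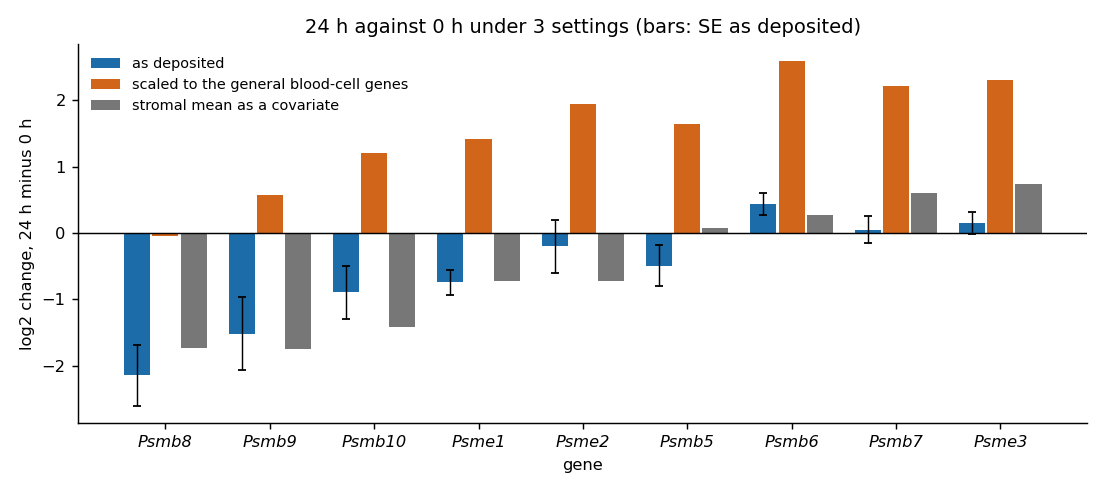
Log2 change from 0 h to 24 h of the 5 immunoproteasome genes and of Psmb5, Psmb6, Psmb7 and Psme3 with values as deposited (blue, bars SE), scaled to the general blood-cell genes (orange) and with the stromal mean as a covariate (grey). Psmb8 stands at -2.14, -0.05 and -1.73; Psmb6 at 0.44, 2.59 and 0.27.

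A ratio of 2 genes within a library does not depend on how libraries are scaled, but it can depend on the mixture of cells. Over the 42 libraries Psmb8 correlated with the blood-cell mean at r = 0.82 and Psmb5 at 0.13. With the stromal mean the values were -0.64 and 0.07. The part of the mixture in the ratios below was not tested. The ratio of Psmb8 to Psmb5 was 1.12, 1.26 and 0.892 in the 0 h libraries, 0.413, 0.589 and 0.179 in those of 6 h, 0.412, 0.425 and 0.206 in those of 24 h, and 1.01, 1.62 and 1.73 in those of 144 h. Levels of the pair were thus near equal at 0 h, Psmb5 was the higher of the pair in every library at 6 and 24 h, and Psmb8 in every library at 144 h. The single libraries at 120 h and 168 h had ratios of 1.2 and 1.44. The log2 ratio changed by -1.62 ± 0.53 from 0 to 6 h, by -1.71 ± 0.37 from 0 to 24 h and by 2.1 ± 0.42 from 24 to 144 h. In each of those comparisons the groups did not overlap (two-sided exact permutation test, p = 0.1, the smallest that 3 against 3 libraries can give, and 0.18 adjusted over 36 tests). Over all 42 libraries, 76.5% of the variance of this log2 ratio lay between time points (permutation test of the F statistic with 100000 resamples, p = 3e-05, adjusted over 6 ratios 0.00018).

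The ratio of Psmb9 to Psmb6 behaved alike up to 6 h: 0.958, 1.2 and 0.909 in the 0 h libraries, 0.472, 0.492 and 0.41 in those of 1 h, and 0.291, 0.333 and 0.333 in those of 6 h. The groups did not overlap, with log2 changes of -1.15 ± 0.15 at 1 h and -1.67 ± 0.14 at 6 h (exact permutation test, p = 0.1 each). At 24 h the ratio was 0.544, 0.54 and 0.0528, with replicate 3 far below the others, and at 144 h it was 1.22, 1.2 and 1.19. The log2 change at 24 h was -2.02 ± 1.13, and -0.91 without that replicate. Over the 42 libraries the permutation p of this ratio was 0.00028 (adjusted 0.00084), and without 24 h replicate 3 it was 1e-05, the smallest that the resamples can give. For Psmb10 to Psmb7 the log2 change was -0.54 ± 0.12 at 1 h and -0.99 ± 0.42 at 24 h, without overlap, and the permutation p over the 42 libraries was 0.053 (adjusted 0.063).

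Within the activator, Psme2 was higher relative to Psme1 from 0.5 h on, apart from replicate 3 at 12 h and 24 h and replicate 1 at 96 h. Their ratio was 0.612, 0.796 and 0.664 in the 0 h libraries and 0.977, 1.12 and 0.942 in those of 0.5 h. It was 1.05, 0.983 and 0.953 in those of 1 h, 1.26, 1.19 and 1.2 in those of 6 h, and 1.08, 1.02 and 0.884 in those of 144 h. Replicate 3 at 12 h (0.709) and replicate 1 at 96 h (0.78) lay within the 0 h range. All libraries at 1, 6 and 144 h lay above all at 0 h. The log2 ratio was 0.53 ± 0.12 higher at 1 h, 0.82 ± 0.12 at 6 h and 0.53 ± 0.14 at 144 h (exact permutation test, p = 0.1 each). At 24 h it was 1.37, 1.57 and 0.466, with replicate 3 below the 0 h libraries. Over the 42 libraries the permutation p was 0.041 (adjusted 0.061), and without 24 h replicate 3 it was 0.00032 (adjusted 0.00064). This ratio was added after the levels had been seen. For Psme2 to Psme3, chosen earlier, the permutation p was 0.54 (adjusted 0.54) and 0.19 without 24 h replicate 3, with log2 changes at 24 h of -0.35 and 0.65.

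**Figure D4:**
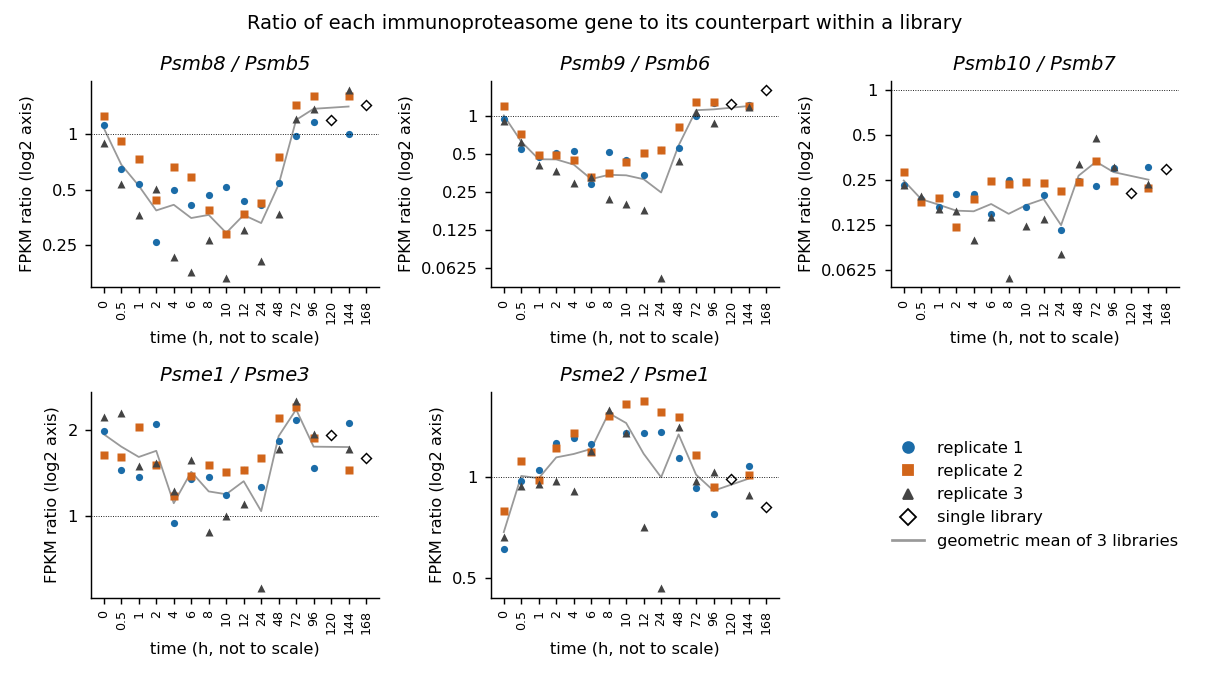
FPKM ratio within each library (log2 axis) of 3 immunoproteasome catalytic genes to their counterparts, of Psme1 to Psme3 and of Psme2 to Psme1 against time, with lines through the geometric means of 3 libraries and a dotted line at 1. Psmb8 to Psmb5 starts at 0.892 to 1.26, reaches 0.206 to 0.425 at 24 h and ends at 1.01 to 1.73 at 144 h.

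Of the counterparts, Psmb6 was called at 24 h and the others were not. Psmb5 held 109.9, 116.4 and 124.9 FPKM before and 114, 149.8 and 33.04 at 24 h. The groups overlapped, and the change of -0.49 ± 0.31 was not called (limma adjusted p = 0.211). Psmb6 rose by 0.44 ± 0.17 at 24 h (limma adjusted p = 0.0336), from 124.1, 121.9 and 99.97 to 153.6, 187.9 and 130.6 FPKM. Every 24 h library of Psmb6 lay above every one at 0 h. Psmb7 had means of 163 ± 22.4 FPKM at 0 h and 177 ± 62.8 at 24 h, and Psme3 94.1 ± 14.8 and 105 ± 21.6 (SD, n = 3), and neither was called. Without 24 h replicate 3 the changes of Psmb5, Psmb6 and Psmb7 were 0.16, 0.56 and 0.39, beside -1.19, -0.34 and -0.27 for Psmb8, Psmb9 and Psmb10.

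At 1 h the standard genes called were 3 assembly chaperones, a core gene and a cap ATPase gene. Called lower were 5 of 42 (11.9%), beside 15.3% of tested genes called lower, and 0 were called higher (16.8% of tested genes). Psmg1, Psmg2 and Psmg3 are subunits of the chaperones that build the alpha ring. Psmg3 had 23.01, 27.78 and 23.72 FPKM before and 5.322, 14.79 and 17.15 at 1 h, and Psmg2 had 25.64, 23.21 and 22.21 and then 11.86, 9.297 and 16.27. For both genes all 1 h libraries were below all 0 h libraries. Psmg3 fell by 1.08 ± 0.34 (limma adjusted p = 0.0154), Psmg2 by 0.90 ± 0.27 (limma adjusted p = 0.0103) and Psmg1 by 0.68 ± 0.24 (limma adjusted p = 0.0292). The other calls were the core gene Psma1 (-0.52) and the ATPase gene Psmc4 (-0.40). The count of 5 was 2 without 1 h replicate 1, 1 h replicate 2 or 0 h replicate 2 and 3 without 0 h replicate 1, with Psmg3 lost without 1 h replicate 1 (-0.61) or 0 h replicate 2 and Psmg2 without 1 h replicate 2 (-0.73). Psmg1 was not called without any 1 of 1 h replicates 1 and 2 and 0 h replicates 2 and 3 (-0.52 to -0.66). How many of all tested genes were called in these fits is not given here. Scaled to the blood-cell genes, which moved the median of all genes to 0.89, Psmg2, Psmg1 and Psma1 stood at 0.18, 0.42 and 0.62, all under that median.

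From 6 to 12 h, most standard genes called higher were cap genes, which are 17 of the 42 tested. Called higher at 6 h were 6 of 42 and lower 1 (16.7%, beside 38.1% of tested genes, 19% higher and 19.2% lower). The numbers were 11 and 4 at 8 h (35.7%, beside 39.6%, 20.4% higher and 19.2% lower) and 11 and 1 at 12 h (28.6%, beside 41.9%, 21.6% higher and 20.3% lower). Psmc5, an ATPase of the cap, had 103.5, 124.7 and 79.04 FPKM in the 0 h libraries, 172, 171.8 and 118.2 in those of 6 h and 166.9, 176.6 and 157.3 in those of 12 h. Its 12 h libraries lay above all 0 h libraries, while 1 library at 6 h did not. Psmc5 rose by 0.59 ± 0.17 at 6 h (limma adjusted p = 0.00571), as did Psmd14, the deubiquitinase of the cap (0.55), Psmd11, a scaffold subunit (0.52), and the ATPase gene Psmc2 (0.51). Psmd11 had 60.45, 79.75 and 58.51 FPKM before and 106, 107.2 and 126 at 12 h, without overlap, and rose by 0.77 ± 0.15 (limma adjusted p = 0.000108). Of the 6 called higher at 6 h 5 were cap genes, Psma4 being the exception, and of the 11 at 12 h 8, the other 3 being Psma4, Psmb3 and Psmb6. Without 6 h replicate 1 or with only the 0 h and 6 h libraries fitted, 3 genes were called higher and 1 lower at 6 h, and without 0 h replicate 3 the numbers were 3 and 4. The share of all tested genes in each of these fits is not given here.

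At 24 h, both core rings and both 19S classes had standard genes called in either direction, the chaperones had 1 called lower, and the other caps and inhibitor had 0 called. Of 42, 7 were called higher and 6 lower (31%, beside 43.3% of tested genes, 20.8% higher and 22.5% lower), with a median change of -0.03, and 31 of 42 (73.8%) moved by less than 0.5 on the log2 scale, beside 47.7% of all tested genes. Psma1 and Psma4, both of the alpha ring, went in opposite directions: Psma1 fell by 0.80 ± 0.18 (limma adjusted p = 0.000648) and Psma4 rose by 0.56 ± 0.13 (limma adjusted p = 0.000843). Psma1 had 164.5, 193 and 133.5 FPKM before and 143.6, 83.78 and 65.19 at 24 h, with 1 library in the range of 0 h. Psma4 had 122.9, 111.2 and 126.6 and then 193.3, 151.5 and 190.9, without overlap. Psma1 was called lower at all 10 time points from 0.5 to 48 h, and it was the only standard gene called at 0.5 h (1 of 42, beside 21.6% of tested genes, 14.3% higher and 7.29% lower).

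Among the cap genes, Psmd1, a large scaffold subunit, rose by 0.67 ± 0.16 at 24 h (limma adjusted p = 0.00107), and Psmc5 and Psmd11 by 0.51 each. Psmc5 was not called without 24 h replicate 2 (0.44) or 0 h replicate 3 (0.34). Psmd8, a lid subunit, had 129.1, 143.7 and 115.8 FPKM before and 79.9, 84.47 and 81.42 at 24 h, without overlap. It fell by 0.65 ± 0.12 (limma adjusted p = 7.13e-05), and Psmc4 fell by 0.55 ± 0.13 (limma adjusted p = 0.00113). Psmg2 fell by 0.81 ± 0.27 (limma adjusted p = 0.0156), and without 24 h replicate 3 its change was -0.61 (limma adjusted p = 0.108). Psmc3ip, the row that is no subunit, rose by 0.75 ± 0.30 (limma adjusted p = 0.0414). Without 24 h replicate 1 the standard genes called at 24 h were 4 higher and 11 lower, without replicate 2 4 and 8, without 0 h replicate 3 3 and 5, and with quantile normalization 8 and 10. Quantile normalization called 42.8% of all tested genes at 24 h. For these fits without 1 library the share is not given here. Scaled to the blood-cell genes all 42 were called higher, beside 80.3% of tested genes called, where the median of all genes stood at 1.86.

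Few standard genes differed from 0 h at the end of the course. At 72 h 4 of 42 were called (9.52%, beside 25.4% of tested genes, 17.2% higher and 8.23% lower). They were Psmc5 (0.54 ± 0.17, limma adjusted p = 0.016) and Psmd12 (0.39) higher, and Psmc4 (-0.37) and Psmd8 (-0.34) lower. No more than 1 or 2 of 42 were called without 72 h replicate 2 or any 1 of the 0 h libraries. At 144 h 0 of 42 were called by limma (beside 8.89% of tested genes, 5.64% higher and 3.24% lower), with 1 called when 144 h replicate 3 was left out. All 42 lay within 0.5 of 0 h on the log2 scale, beside 73.7% of all tested genes. Between 24 h and 144 h 7 of 42 were called higher and 1 lower (19%, beside 32.9% of tested genes, 17.4% higher and 15.6% lower). With only those libraries fitted 0 were called. Psmg2 rose by 1.00 ± 0.27 (limma adjusted p = 0.00452), from 13.07, 17.56 and 9.714 FPKM to 38.04, 34.39 and 15.36. Replicate 3 at 144 h stayed within the 24 h range, and the other two were above it. Psma5, an alpha ring gene, rose by 0.81, Psmd13 by 0.77 and Psma1 by 0.61, and Psmd1 fell by 0.41. Without 24 h replicate 3 these 4 were not called (0.33, 0.36, 0.36 and -0.36). In that fit 3 standard genes were called higher and 1 lower, beside 24.8% of tested genes called in either direction.

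**Figure D5:**
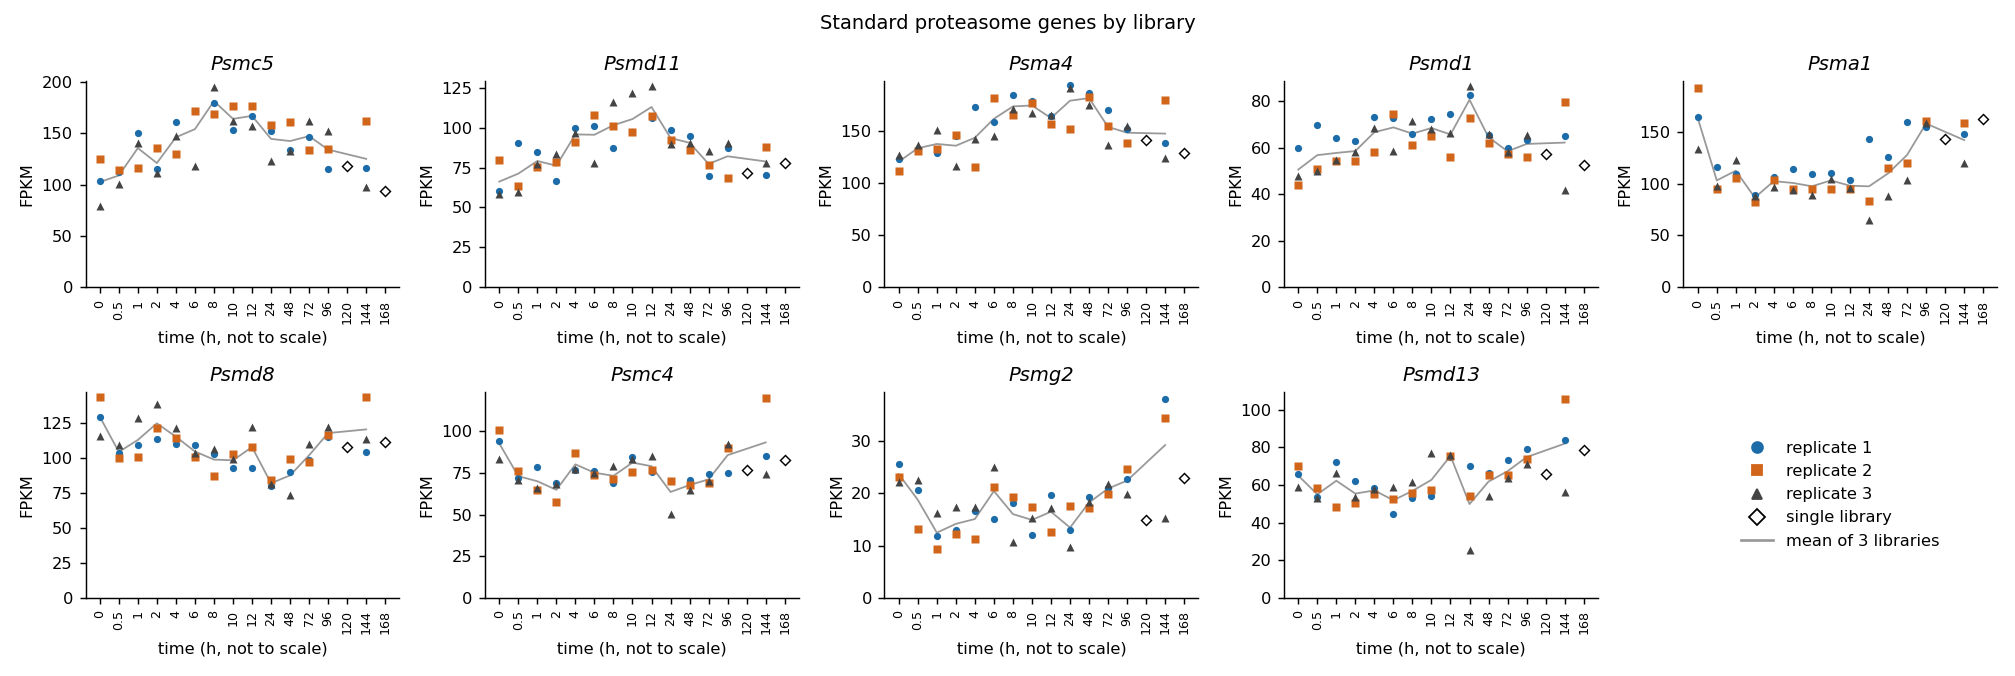
FPKM of 9 standard proteasome genes in every library against time, with a marker per replicate, open diamonds for the single libraries and lines through the means of 3. Psmc5 peaks at 181 at 8 h and Psmd11 at 113 at 12 h, while Psmd8 is lowest at 24 h (81.9) and Psma1 has its highest mean at 0 h (164) and its lowest at 2 h (86.6).

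The immunoproteasome genes followed one another more closely than the standard genes did. Over the 42 libraries (log2 scale, a description of points that share time point, cell mixture and library), each immunoproteasome gene correlated with the other 4 at a median r of 0.71 to 0.85, Psme2 lowest and Psmb9 highest. With the standard core and cap genes, their medians were 0.02 to 0.23. Among the standard genes the median r with the other core and cap genes ran from -0.04 (Psmd8) to 0.44 (Psmb3). The 5 genes outside the complex most like the mean of the immunoproteasome genes were H2-D1 (r = 0.938), Tap1 (0.931), H2-K1 (0.923), H2-T23 (0.89) and Tap2 (0.888). H2-D1 and H2-K1 encode classical MHC class I heavy chains and Tap1 and Tap2 the peptide transporter. These values include 24 h replicate 3, the lowest 24 h library for all 5 immunoproteasome genes, H2-D1 (100.6 FPKM) and Tap1 (18.9). Its part in the correlations was not tested. Those most like the mean of the standard core and cap genes were Ran (0.882), Eif5a (0.859), Cct6a (0.857), Nme1 (0.825) and L3mbtl2 (0.807).

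Of 12 listed genes of MHC class I presentation, 5 were called lower and 2 higher at 24 h (beside 22.5% and 20.8% of tested genes), and between 24 h and 144 h 4 were called higher and 2 lower (beside 17.4% and 15.6%). By limma without 24 h replicate 3, 0 were called lower and 2 higher at 24 h, beside 35.9% of tested genes called in either direction. Between 24 h and 144 h 0 were then called higher and 1 lower, beside 24.8%. The median change at 24 h was -0.55, beside -0.06 over all tested genes. H2-D1 had 495, 573.7 and 440 FPKM in the 0 h libraries and 388.5, 448.8 and 100.6 in those of 24 h, and Tap1 had 72.46, 74.88 and 63.51 and then 58.05, 69.72 and 18.9. For both genes replicate 3 at 24 h was far below the other libraries, of which 1 at 24 h lay within the 0 h range and 1 below it. Tap2 fell by 1.18 ± 0.37 (limma adjusted p = 0.0111), H2-D1 by 0.94 and H2-K1 by 0.82, and Tap1 had -0.70 and was not called (limma adjusted p = 0.101). When 24 h replicate 3 was left out, the changes of Tap2, H2-D1, H2-K1 and Tap1 were -0.57, -0.26, -0.25 and -0.14, none called (the lowest limma adjusted p, of Tap2, was 0.207). B2m, the light chain of MHC class I, rose by 0.83 (limma adjusted p = 0.0195), and without that library its change was 0.67 (limma adjusted p = 0.1). H2-D1 and H2-K1 are close copies, and how reads that fit both were assigned is not stated.

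Among 11 listed regulators of the interferon pathway, 2 were called higher and 3 lower at 24 h (45.5% called, beside 43.3% of tested genes). Without 24 h replicate 3 the numbers were 3 and 2, beside 35.9% of tested genes called in either direction. Irf8, a transcription factor of blood cells, fell by 2.95 ± 0.33 (limma adjusted p = 3.19e-08) and Nlrc5, the transactivator of MHC class I genes, by 0.85 ± 0.25 (limma adjusted p = 0.00654), and Stat2 rose by 1.25 ± 0.36 (limma adjusted p = 0.00581). Nlrc5 was not called without 24 h replicate 3 (-0.52, limma adjusted p = 0.106). Both Irf8 and Nlrc5 rose between 24 h and 144 h, by 3.05 and 1.20. Irf1 was not called at 1, 6 or 24 h. Of 7 listed regulators of standard proteasome transcription, 4 were called higher and 0 lower at 1 h (beside 16.8% and 15.3% of tested genes), and 3 and 2 at 24 h (beside 20.8% and 22.5%). Those at 24 h were 2 and 1 without 24 h replicate 3. Nfe2l1, the factor that drives proteasome genes when degradation is impaired, rose by 0.70 ± 0.19 at 1 h (limma adjusted p = 0.00474) and by 0.76 ± 0.19 at 24 h (limma adjusted p = 0.00158), and Ddi2, the protease that activates it, fell by 0.60 at 24 h (limma adjusted p = 0.00944).

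Other genes of the pathway were mixed. Of 15 tested proteasome-associated and assembly genes outside the symbol rule, 3 were called higher and 5 lower at 1 h (53.3% called, beside 32.1% of tested genes), and 3 and 3 at 24 h (40%, beside 43.3%). Without 24 h replicate 3 the numbers at 24 h were 4 higher and 0 lower, beside 35.9% of tested genes called in either direction. The nuclear proteasome phosphatase Ublcp1 rose by 2.05 ± 0.27 at 24 h (limma adjusted p = 2.58e-07). Uchl5, a deubiquitinase of the cap, fell by 0.92 ± 0.27 at 1 h (limma adjusted p = 0.0102). Of 9 tested genes of ubiquitin, its activating enzymes and the p97 segregase, 1 was called higher and 3 lower at 24 h (44.4%, beside 43.3%), among them Vcp, which encodes p97 and fell by 0.50 (limma adjusted p = 0.0126), or -0.21 and not called without 24 h replicate 3. In the fit without that library 2 of the 9 were called higher and 1 lower at 24 h.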

How the data were processed

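Poly(A) RNA of 44 libraries was sequenced, and the authors deposited 1 FPKM value per gene and library. Per the submitters' processing notes, mm9 was the genome, TopHat2 2.1.0 and Cufflinks 2.1.1 the tools. The deposited table is named as corrected; the kind of correction is not given in the sources used here. The file holds no counts, so depth is unknown and no counting interval is given. Values were taken as log2(FPKM + 1), which understates the changes of low genes. A gene was kept where 3 or more of the 42 replicated libraries reached 1 FPKM, which left 13907 genes. For these, limma 3.58.1 (R 4.3.3) was run with 1 mean per time point and eBayes with a mean-variance trend. P-values were adjusted by Benjamini-Hochberg over all tested genes within each contrast, and genes were called at an adjusted p under 0.05. There were 6 main comparisons: 0 h with each of 1, 6, 24, 72 and 144 h, plus 24 h with 144 h. Ratios were compared by exact permutation tests. The script was tested on simulated data. Named genes were the immunoproteasome genes and their counterparts, the 4 largest called rises and falls of standard genes per comparison, members under 1 FPKM, the highest and lowest median per subcomplex, and the 5 non-members most correlated with each group. Pathway genes named were picked from their lists after their values were seen. Members and lists were chosen with earlier results of these data known. Tried alternatives were the pseudocount, filters, quantile normalization, scaling to blood-cell genes, a stromal covariate, blocks, other eBayes settings, fits of 2 time points and left-out libraries. Some genes of the pathway lists are not reported here. The permutation tests over all libraries, and the F tests, ratios, counterpart and pathway genes without 24 h replicate 3, were chosen after seeing the data.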

Additional observations from a re-analysis of the deposited data

How the results depend on the processing

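A pseudocount of 0.1, no filter on low values and a filter at 5 FPKM left every count of called members within 1.5 times, and all 36 ratio changes stayed within 1 SD with a pseudocount of 1 on both genes. The SD of ratios at 24 h holds replicate 3, without which Psmb9 to Psmb6 went from -2.02 to -0.91, Psme1 to Psme3 from -0.90 to -0.44 and Psme2 to Psme3 from -0.35 to 0.65 against 0 h, and Psme2 to Psme3 from 0.73 to -0.27 between 24 h and 144 h. Counts below are given as standard or immunoproteasome genes called, and the cause of each difference was not tested. Quantile normalization gave 2 immunoproteasome genes at 1 h and 3 at 6 h, and 18 standard genes at 24 h (8 higher, 10 lower). With values scaled to the blood-cell genes, called higher were 38 standard genes at 1 h, all 42 at both 6 h and 24 h, then 39 at 72 h, 41 were lower between 24 h and 144 h, and 42 differed over time by the F test. That scaling called 54.1%, 71.6%, 80.3%, 60.3% and 76.8% of all tested genes in these comparisons, 98.7% to 99.4% of them higher against 0 h. Immunoproteasome genes called under that scaling were 2 at 1 h, 3 each for 6 h and 24 h, then 5 at 72 h, all higher, and 2 lower between 24 h and 144 h. Changes that turned under it were, at 1 h, Psme1 0.75, Psmg2 0.18, Psmg1 0.42 and Psma1 0.62, and at 6 h, Psmb8 0.21, Psmb10 1.28, Psme1 1.14 and Psma1 0.89. At 24 h they were Psmb9 0.58, Psmb10 1.21, Psme1 1.41, Psme2 1.95, Psmg2 1.27, Psma1 1.35, Psmd8 1.5 and Psmc4 1.60, and at 72 h Psmb8 1.06, Psmc4 0.69 and Psmd8 0.72. Between 24 h and 144 h they were Psmb10 -0.55, Psme1 -0.85, Psme2 -0.86, Psmg2 -0.67, Psma5 -0.91, Psmd13 -0.94 and Psma1 -1.12.

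With the stromal mean as a covariate, 0 standard genes were called at 1, 6, 24 or 72 h or between 24 h and 144 h, and 0 immunoproteasome genes at 6 h, 24 h or between 24 h and 144 h; by the F test 5 standard genes and 1 immunoproteasome gene differed. Of all tested genes 0.252%, 0.165%, 0.0935% and 0.0431% were called in that fit at 1, 6, 24 and 72 h and 2.65% between 24 h and 144 h. Psma1 turned to 0.21 at 1 h and 0.18 at 6 h, Psmg2 to 0.03 at 24 h and Psmd8 to 0.04 at 72 h. Libraries were not paired by replicate number in the main fit. Same-numbered deviations from the group means correlated weakly (-0.0632 to 0.142, beside -0.183 to 0.0749 for different numbers). Within each comparison every same-numbered value was above all others, apart from 24 h and 72 h against 0 h. With the number as a replicate block 2 immunoproteasome genes were called at 1 h, 3 at 6 h and 2 at 72 h, with every other count within 1.5 times. With library-code run as a block, in which 72 h and 144 h share no run with 0 h, they were 3, 3 and 4, and 3 at 144 h. The shares of all tested genes in the fits with blocks are not given here. Without the eBayes trend and with robust settings 2 standard genes were called at 72 h. With 2 time points fitted, the immunoproteasome counts were 2 each for 1 h and 6 h, 0 for 24 h, 1 for 72 h and 0 between 24 h and 144 h, and the standard counts 4 each for 6 h and 24 h, 0 for 72 h and 0 between 24 h and 144 h. Leaving out 1 library, standard counts were 2 to 5 at 1 h, 4 to 8 at 6 h (7 without 0 h replicate 3), 8 to 15 at 24 h (12 without 24 h replicate 2), 1 to 4 at 72 h, 0 to 1 at 144 h and 4 to 9 between 24 h and 144 h. Immunoproteasome counts were 0 to 2 at 6 h, 2 to 4 at 24 h, 2 to 5 between 24 h and 144 h and 0 at the other times. By the F test, leaving out 24 h replicate 3 or 1 replicate number, 4 to 25 standard and 2 to 5 immunoproteasome genes differed.

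FPKM without counts leave the depth unknown, so no counting error can be given for low members such as Psmb11. The pairs of time points rest on 3 libraries each, and 72 h and 144 h were in other library-code runs than 0 h, so no within-run value exists there and the fit with run as a block rests on the time points in between. From 24 h to 144 h only replicate 3 stayed in its run. Replicate 3 at 24 h was in another run than replicate 3 at 0 h. Run and time point cannot be told apart for replicates that changed run.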
